A study of Homo sapiens with 21 samples.

Results

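The first move of HepG2/C3A cells from flat culture into 3D was read by setting spheroids of Day 3 against cells kept as a 2D monolayer. The groups were taken by their labels, 3 libraries each and 6 of the 21 libraries in the series, and the 12345 genes that passed a filter on low counts were compared. HepG2/C3A is an established line derived from a human liver tumour, labelled wild type and epithelial-like, so both groups hold 1 line without the other cells of a liver. Both groups were grown in MEM with fetal bovine serum and non-essential amino acids. The monolayer is the labelled control, and the spheroids were made by forcing monolayer cells together in ultra-low attachment plates before transfer to a ClinoReactor, a slowly turning culture vessel. The labels give neither age nor density of the monolayer, so cell shape, culture vessel and time since plating cannot be told apart. RNA was measured by TempO-Seq, which counts pairs of gene-specific detector oligos joined on their transcript. Levels are CPM, counts relative to the scaled library size, and they compare libraries rather than genes because a level depends on its probes. The labels call the replicates biological without naming separate cultures, and each p-value therefore covers library-to-library spread alone, which may be technical.

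Epithelial cells on plastic spread, grip the coated surface through integrins and are pulled flat by their own cytoskeleton. Growth factor signalling through the EGF receptor and the kinase ERK is typically strong in such cells and feeds the AP-1 transcription factors, which act on genes of migration, matrix cutting and inflammation. In an aggregate the cells instead touch each other on all sides, can lay down matrix of their own and can form small lumens between neighbours, as hepatocytes do at bile canaliculi. Hepatocytes also differ from dividing cells in flat culture in how they handle fuel, since they release glucose and rely heavily on mitochondria.

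A large part of the transcriptome differed between the groups. Of the 12345 genes, 9627 were called by edgeR's quasi-likelihood test at a Benjamini-Hochberg adjusted p under 0.05, which is 78.0%, with 4955 higher (40.1%) and 4672 lower (37.8%) at Day 3. A difference of at least 2-fold was called for 3139 genes higher (25.4%) and 2474 lower (20%). These 2 shares are the background for 2-fold counts in every list below, and 40.1% and 37.8% for counts of genes called higher and lower. A list near them is not read as a result about its members. At least 8-fold were 1228 genes (9.95%), 827 higher (6.70%) and 401 lower (3.25%), and the 3 libraries of one group lay wholly above those of the other for 80.9% of genes. The naming rule required such separation in its ranking and list parts, so for those genes it adds no support. The median log2 fold change over all genes was 0.06, and scaling by library size alone would raise it by 0.22. The libraries held 26709296 to 43443262 counts, and libraries of a group correlated at 0.989 to 0.991 over log2 CPM against 0.868 to 0.876 between groups. Genes of the cell cycle, plasma proteins and the ATF4 amino acid response were set aside and are counted here only. Of 303 tested cell cycle genes 273 were at least 2-fold higher and 6 lower, of 96 plasma protein genes 67 were higher and 3 lower, and of 56 ATF4 genes 2 were higher and 41 lower. The remaining 41 lists, with 1265 tested genes, are described by adhesion and shape, signalling, energy use, and the supply of protein and RNA. All 10 hepatocyte markers were detected in both groups. Markers of other liver cells were in part absent: PTPRC, CD163 and CD3E of blood cells, KDR and STAB2 of endothelium and COL1A1, COL3A1 and DCN of fibroblasts had 0 counts in all 6 libraries. Others were detected. CD68 of macrophages stood at 43.8, 49.8 and 48.9 CPM in the monolayer and 52.9, 48.6 and 56.4 at Day 3. CD14 stood at 0.127, 0.102 and 0.130 against 1.81, 2.18 and 2.06 CPM. KRT19, SPP1, LYZ and ACTA2 are given below.

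**Figure D1:**
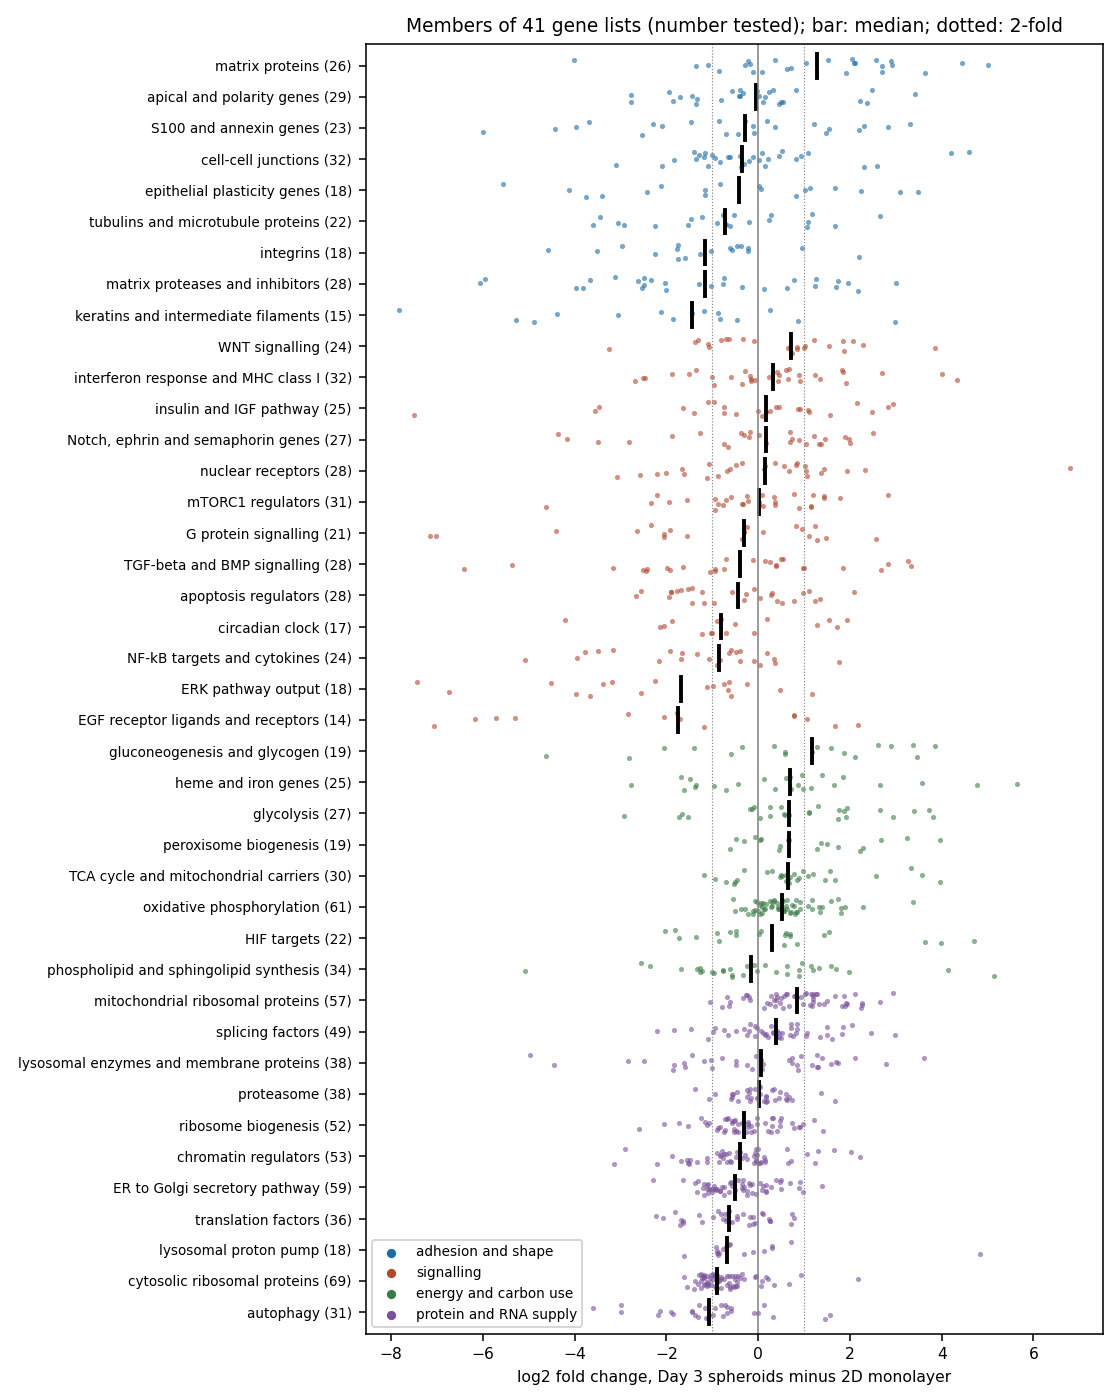
Each point is a tested gene of 1 of the 41 lists, placed by its log2 fold change between Day 3 spheroids and the monolayer (horizontal axis), black bars mark list medians and dotted lines mark 2-fold. Matrix proteins, gluconeogenesis and mitochondrial ribosomal proteins have medians of 1.29, 1.17 and 0.84, and EGF receptor genes, ERK output, keratins and integrins lie at -1.74, -1.67, -1.44 and -1.15.

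Ligands of the EGF receptor and the genes that ERK signalling induces were among the genes that fell furthest. AREG, which encodes the ligand amphiregulin, stood at 2302, 2619 and 2600 CPM in the monolayer libraries and at 27.6, 14.4 and 12.97 at Day 3. EREG, the ligand epiregulin, stood at 27.1, 29.7 and 26.5 against 0.696, 0.242 and 0.106 CPM. HBEGF, the heparin-binding ligand, stood at 688, 597 and 628 against 16.8, 16.7 and 14.7 CPM. All 3 ligands were lower in every Day 3 library than in any monolayer library, by log2 fold changes of -7.07 ± 0.58 (SE), -6.18 ± 0.40 and -5.31 ± 0.12, the last a 39.7-fold difference (edgeR adjusted p = 1.93e-24). Such separation was found for 39.5% of all genes, and the naming rule required it of AREG and EREG. AREG and EREG are neighbours on chromosome 4, at 74445134 to 74455009 and 74365143 to 74388751 on the plus strand of GRCh38. The receptors did not fall as a set. ERBB2 and ERBB3, receptors of the same family, rose by 0.78 ± 0.07 and 1.68 ± 0.07, while EGFR was near the detection limit of its probe, with 71 counts over the monolayer libraries and 1 over the Day 3 libraries. Inhibitors of the receptor moved both ways: ERRFI1, a feedback inhibitor, fell from 5145, 4851 and 4825 to 1493, 1524 and 1537 CPM, and LRIG3 rose from 4.79, 5.75 and 4.78 to 24.7, 21.9 and 22.6. ADAM17, the protease that cuts amphiregulin and HB-EGF free from the cell surface, also fell, by 2.50 ± 0.07 on the log2 scale, with RHBDF1 and RHBDF2, its partner proteins, at -2.84 and -1.78. Of 14 tested genes of the EGF receptor list 8 were at least 2-fold lower and 3 higher.

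Of 18 tested ERK output genes, which ERK signalling can induce, 10 were at least 2-fold lower and 1 was higher, and 15 of the 18 were called lower. The share of all genes called lower was 37.8%. Activity of the receptor and of ERK was not measured, and a link between these falls and those of the ligands was not tested. DUSP4, a phosphatase that switches off ERK, stood at 26.9, 23.5 and 27.4 CPM in the monolayer and 0.746, 1.28 and 1.45 at Day 3. FOSL1, a subunit of AP-1, stood at 338, 341 and 319 against 27.6, 24.2 and 26.6 CPM, a 12.7-fold difference (-3.67 ± 0.09). PHLDA1 and MAFF fell by 3.38 ± 0.09 and 3.97 on the log2 scale, the former from 651, 572 and 596 to 57.9, 59.0 and 57.9 CPM. IL11, a cytokine of the interleukin-6 family, stood at 16.9, 19.2 and 19.0 CPM against 0.149, 0.138 and 0.00, with 1739 counts in the monolayer libraries and 10 at Day 3 (-7.44 ± 0.51, adjusted p = 2.15e-13). The fall was not uniform. SPRY2, another feedback inhibitor of the pathway, did not pass the test (-0.25 ± 0.13, adjusted p = 0.0780), and the cyclin gene CCND1 was the member that rose by at least 2-fold (1.17 ± 0.21).

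Promoters of the genes that fell most were searched for the AP-1 letters TGANTCA, which read alike on both strands, in the 250 bases before the RefSeq start site (GRCh38.p14). The letters were in 27 of 304 windows (8.88%) of genes called at least 8-fold lower, in 32 of 643 (4.98%) of genes at least 8-fold higher and in 378 of 9932 (3.81%) of all tested genes with a window. Without the set-aside lists the lower genes had them in 24 of 289 windows (8.30%), and without the cell cycle list the higher genes had them in 30 of 494 (6.07%). Another 4 motifs were searched on both strands and overlap the AP-1 letters by at most 2 bases. In the 8-fold lower genes against all genes, TEAD letters CATTCC were in 12.2% against 9.44%, the CRE core TGACGT in 7.89% against 10.3%, HNF4 letters CAAAGTC in 1.97% against 2.34% and NF-Y letters CCAAT in 29.6% against 35.5%. NF-Y letters were in 47.0% of the 8-fold higher windows, and in 40.1% with the cell cycle list left out. A match is a run of letters and not a shown binding site. Of the fallen genes above, AREG, EREG and ERRFI1 had no AP-1 match in their windows, while CLDN2 and ENO3, described below as higher, had 1 each. Stretches around the match (capitals) are printed for 6 fallen members of the lists, 5′ to 3′ on the strand of the gene, to show where the letters lie. They are IL11 at chr19:55370528-55370584 (minus strand), SGMS2 at chr4:107824398-107824454 (plus), S100A2 at chr1:153565865-153565921 (minus), SERPINB8 at chr18:63970028-63970080 (plus), CXCL8 at chr4:73740407-73740463 (plus) and PLAUR at chr19:43670324-43670380 (minus), with the match 96, 140, 52, 28, 137 and 186 bases before the start site.
IL11: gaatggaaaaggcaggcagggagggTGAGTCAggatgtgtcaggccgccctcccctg
SGMS2: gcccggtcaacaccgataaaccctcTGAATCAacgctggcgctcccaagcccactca
S100A2: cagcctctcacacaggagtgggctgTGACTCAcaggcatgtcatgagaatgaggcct
SERPINB8: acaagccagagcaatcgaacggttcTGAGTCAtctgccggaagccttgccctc
CXCL8: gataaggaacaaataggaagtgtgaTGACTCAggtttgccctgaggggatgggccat
PLAUR: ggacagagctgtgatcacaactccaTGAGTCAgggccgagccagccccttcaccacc

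Most integrin genes fell, while many matrix proteins rose. In bulk RNA fewer cells with a transcript and less of it per cell cannot be told apart. ITGB1, the beta subunit shared by most matrix-binding integrins, stood at 497, 550 and 566 CPM in the monolayer and 156, 167 and 155 at Day 3 (-1.76 ± 0.07, adjusted p = 3.93e-21). ITGA3, a laminin-binding partner of ITGB1, stood at 16.5, 14.9 and 12.6 against 0.969, 0.415 and 0.354 CPM, and CD9, a tetraspanin that binds integrins, at 48.5, 50.2 and 45.0 against 3.93, 5.22 and 3.37. No Day 3 library reached a monolayer level in these genes, as in 39.5% of all genes, and the naming rule required this of ITGA3 and CD9. The collagen-binding subunits ITGA1 and ITGA2 fell by 1.27 ± 0.08 and 2.96 ± 0.21 on the log2 scale, and FERMT2, which activates integrins from inside the cell, by 2.25. All 18 tested genes of the integrin list were called, 16 lower and 2 higher, with 10 at least 2-fold lower. Among all genes 78.0% were called and 37.8% were called lower. ITGAE, the subunit that binds E-cadherin on neighbouring cells rather than matrix, rose from 2.33, 2.67 and 2.73 to 12.3, 12.3 and 11.1 CPM (2.201 ± 0.17). FERMT1 was the other gene that rose.

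Among proteases and inhibitors of matrix turnover 14 of 28 tested genes were at least 2-fold lower and 7 higher. SERPINE2, an inhibitor of thrombin and urokinase, stood at 155, 145 and 142 CPM in the monolayer and 3.13, 1.52 and 2.30 at Day 3, a 61.8-fold difference. TIMP1, an inhibitor of matrix metalloproteinases, stood at 968, 1007 and 1007 against 117, 108 and 119 CPM (-3.11 ± 0.08). Both inhibitors were lower in all Day 3 libraries, as were 39.5% of all genes, and the naming rule required this of SERPINE2. PLAUR, the urokinase receptor, fell from 14.0, 12.1 and 12.004 to 1.24, 0.796 and 0.886 CPM, and its groups did not overlap. ST14, the epithelial surface protease matriptase, went the other way, from 0.720, 1.27 and 0.976 to 7.48, 8.09 and 9.0002 CPM (3.00 ± 0.20), while SPINT1, an inhibitor of matriptase, fell by 2.35 on the log2 scale.

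Of 26 tested matrix protein genes 14 were at least 2-fold higher and 3 lower. COL9A2, a chain of collagen IX, stood at 2.88, 2.42 and 2.34 CPM in the monolayer and 54.0, 52.4 and 58.5 at Day 3 (4.44 ± 0.13, 21.8-fold). LAMA5, the alpha chain of laminin-511 and laminin-521, stood at 2.41, 3.10 and 3.06 against 36.0, 39.1 and 33.3 CPM (3.64 ± 0.25). Every Day 3 library was above every monolayer library for both, which the naming rule required and which held for 41.4% of all genes. Other parts of the basement membrane rose too: the linker NID1 by 2.91 ± 0.11, the proteoglycans HSPG2, COL18A1 and AGRN by 2.90 ± 0.26, 2.56 ± 0.09 and 2.11 ± 0.09, and the beta chain LAMB2 by 1.91 ± 0.07. LAMB1, the alternative beta chain, fell by 0.85, and COL4A2 of collagen IV did not pass the test (-0.17, adjusted p = 0.53). SPP1, which encodes osteopontin, fell from 204, 191 and 202 to 77.1, 76.5 and 78.6 CPM. SPP1 and KRT19 are also markers of bile duct cells, whose 7 markers summed to 256 to 267 CPM in the monolayer and 91.7 to 93.8 at Day 3, with CFTR and AQP1 at 0 counts, and their part in the result was not tested.

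**Figure D2:**
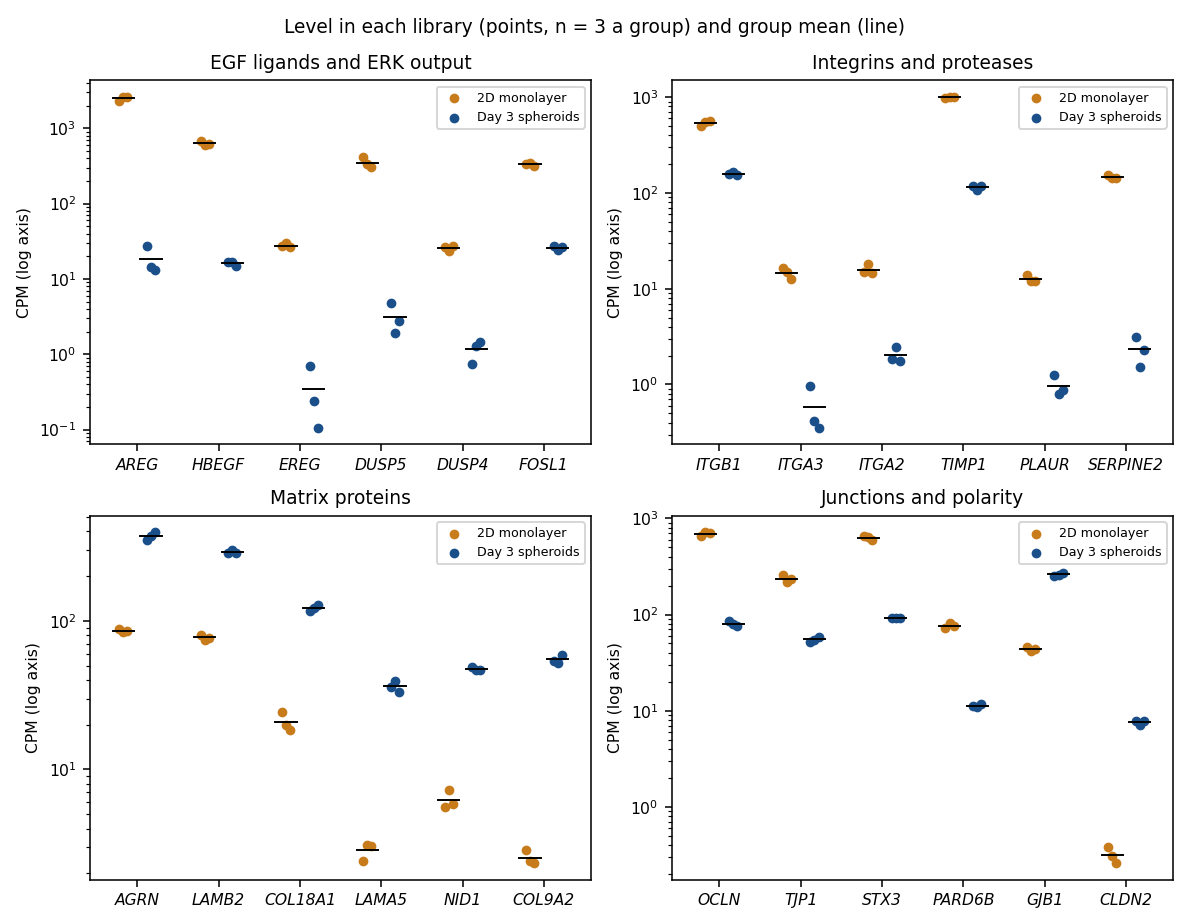
Level of 24 genes in each of the 3 monolayer and 3 Day 3 libraries (points) with group means (lines), in CPM on log axes. Points of the 2 groups are apart for every gene shown, as for 80.9% of all genes, and the naming rule required this of some. The EGF ligand, ERK output, integrin and protease genes shown are lower at Day 3, the matrix genes shown are higher, and junction genes split. Members that went the other way or did not pass the test, such as ST14, ITGAE, LAMB1 and SPRY2, are not shown.

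Genes of the cytoskeleton and of calcium-binding proteins changed member by member. PPL, which encodes periplakin, a linker of filaments to the membrane, stood at 98.0, 118 and 114 CPM in the monolayer and 3.95, 3.94 and 3.22 at Day 3 (-4.88 ± 0.21). KRT80, a keratin, stood at 106, 94.3 and 101 against 4.42, 3.87 and 6.06 CPM, and KRT19 at 54.1, 64.7 and 65.4 against 14.7, 13.9 and 14.0. The keratins that hepatocytes use moved less: KRT8 rose by 0.25 ± 0.09 and KRT18 fell by 0.82 ± 0.08. Of 15 tested keratin and filament genes 8 were at least 2-fold lower and 1 higher, which was EVPL, the gene of envoplakin, the usual partner of periplakin (2.98 ± 0.10). TUBB2B, a beta tubulin, stood at 749, 727 and 740 CPM against 63.7, 60.1 and 59.7, a 12.1-fold difference, while TUBA1B, the alpha tubulin of dividing cells, rose from 146, 152 and 158 to 490, 480 and 486. Tubulin genes are near-identical to each other, so their split of counts is uncertain. In the S100 and annexin list 8 of 23 were at least 2-fold lower and 7 higher. AHNAK2, a scaffold bound by S100 proteins, stood at 27.2, 29.9 and 24.8 against 0.696, 0.208 and 0.283 CPM, S100A11 fell by 3.69 ± 0.12 and ANXA3 by 4.43 ± 0.18 on the log2 scale, and S100A1 rose from 117, 117 and 116 to 515, 521 and 560 CPM. These shifts in opposite directions leave a list median of -0.28.

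Genes tied to epithelial plasticity also split, 8 of 18 at least 2-fold lower and 6 higher. KLF5, a transcription factor of proliferating epithelium, stood at 153, 155 and 160 CPM against 4.55, 1.87 and 3.26, a 47.1-fold difference. L1CAM, an adhesion molecule of migrating cells, stood at 100, 101 and 91.6 against 6.06, 5.12 and 5.53, and SOX4, a transcription factor, at 69.1, 79.3 and 69.8 against 5.19, 6.57 and 4.54. The HMGA genes, whose proteins bend chromatin DNA and which are typical of fetal and tumour cells, moved apart. HMGA1 fell from 82.4, 107 and 97.4 to 10.4, 8.44 and 8.15 CPM, and HMGA2 rose from 121, 109 and 108 to 1256, 1293 and 1264 (3.49 ± 0.07, 11.3-fold, adjusted p = 3.48e-29).

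Junction genes did not rise together in the aggregates. OCLN, which encodes occludin of tight junctions, stood at 660, 718 and 705 CPM in the monolayer and 84.7, 80.4 and 76.4 at Day 3 (-3.11 ± 0.07, 8.63-fold lower). TJP1, the tight junction scaffold ZO-1, stood at 256, 216 and 236 against 52.4, 54.5 and 58.3 CPM. GJB1, the gap junction protein connexin 32 of hepatocytes, rose from 46.2, 41.5 and 43.9 to 254, 258 and 273 CPM (2.58 ± 0.07), and CLDN2, a claudin that forms pores for cations, from 0.381, 0.305 and 0.260 to 7.80, 7.06 and 7.80. Groups did not overlap in any of the 4, as in 80.9% of all genes, and the naming rule required this of OCLN, TJP1 and CLDN2. CDH1, E-cadherin, rose by 0.83 ± 0.14 and CDH2, N-cadherin, fell by 0.39 ± 0.08. In the junction list 9 of 32 tested genes were at least 2-fold lower and 4 higher. Apical and polarity genes had 8 of 29 at least 2-fold lower and 4 higher, with a median of -0.06 that turned to 0.16 with scaling by library size alone and to 0.04 with upper quartile scaling, so no direction is given for the list. Its members moved apart. STX3, a fusion protein of apical vesicles, fell from 660, 639 and 598 to 92.9, 92.5 and 92.0 CPM, and PARD6B of the polarity complex from 72.0, 82.1 and 76.4 to 11.3, 10.8 and 11.7. ANPEP and ESPN, an enzyme and an actin bundler of microvilli, rose by 3.42 ± 0.12 and 2.47 ± 0.07, ESPN from 54.0, 54.1 and 54.5 to 308, 288 and 305 CPM.

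Among inflammatory targets 10 of 24 tested genes were at least 2-fold lower and 1 higher. CXCL8, the chemokine interleukin-8, stood at 26.5, 25.02 and 23.6 CPM in the monolayer and 1.67, 1.56 and 2.30 at Day 3 (-3.77 ± 0.27). RELB, an NF-kB subunit, stood at 9.49, 9.21 and 7.87 against 0.423, 0.796 and 0.532 CPM. CX3CL1, a membrane-bound chemokine, was the exception, with 96.0, 93.0 and 84.6 against 315, 318 and 293 CPM (1.76 ± 0.06). NFKBIA, the feedback inhibitor of NF-kB, did not pass the test (-0.48 ± 0.34, adjusted p = 0.200), and its libraries overlapped.

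Genes of TGF-beta and BMP signalling moved in both directions. On the TGF-beta side the ligand gene TGFB1 stood at 59.5, 64.5 and 58.6 CPM against 13.5, 7.82 and 12.8, the receptor TGFBR2 at 552, 557 and 530 against 147, 151 and 134, and the signal carrier SMAD3 at 497, 462 and 449 against 109, 118 and 130. All 3 were lower in every Day 3 library, as were 39.5% of all genes. TGFBR3, the co-receptor betaglycan, rose from 91.8, 85.6 and 85.0 to 645, 596 and 612 CPM. On the BMP side ID1, a direct target, rose from 152, 125 and 134 to 1303, 1272 and 1393 CPM (3.28 ± 0.20, 9.68-fold), and ID3, another target, from 10.5, 8.19 and 8.85 to 66.6, 55.1 and 53.2. The ligand BMP4 rose by 1.84 ± 0.10, and BMP6, the ligand that drives hepcidin in liver, fell from 7.46, 8.22 and 8.88 to 0.0994, 0.0346 and 0.142 CPM. SMAD6 and SMAD7, inhibitory SMADs, did not pass the test (adjusted p = 0.0517 and 0.0758). Over the whole list 10 of 28 were at least 2-fold lower and 5 higher.

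Of 24 tested WNT genes 9 were at least 2-fold higher and 4 lower, and the genes that rose included feedback inhibitors induced by beta-catenin. NOTUM, an enzyme that inactivates WNT ligands, stood at 42.3, 39.7 and 39.5 CPM against 202, 194 and 195 (2.28 ± 0.07). NKD1, an inhibitor inside the cell, stood at 48.4, 53.4 and 51.1 against 183, 190 and 182 CPM, and RNF43, which removes WNT receptors, at 31.5, 28.2 and 33.2 against 90.3, 89.0 and 93.0. AXIN2 and LGR5, widely used target genes, rose by 0.74 ± 0.17 and 0.85 ± 0.08. The receptor gene FZD4 rose from 1.23, 1.83 and 1.496 to 21.3, 23.4 and 22.9 CPM. DKK1, a secreted inhibitor, fell from 97.5, 92.4 and 97.4 to 10.96, 10.9 and 8.36 CPM (-3.24 ± 0.29). Among contact-dependent signals 7 of 27 were at least 2-fold higher and 6 lower, 25.9% and 22.2%, near the shares of all genes. The Notch ligand JAG1 and the Notch target HEY1 had log2 fold changes of -3.497 ± 0.20 and -4.37 ± 0.20, NRARP, a Notch feedback inhibitor, rose by 2.00 ± 0.17, and the semaphorin SEMA4G rose from 82.2, 79.6 and 77.3 to 465, 445 and 452 CPM.

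Receptors that couple to G proteins included some of the genes that changed most. GPR83 stood at 240, 227 and 227 CPM in the monolayer and 2.44, 0.934 and 1.28 at Day 3, GPRC5A, a retinoid-induced receptor, at 62.4, 73.1 and 66.8 against 0.870, 0.381 and 0.177, and F2RL1, a receptor cut open by trypsin-like proteases, at 30.0, 37.0 and 35.9 against 1.74, 1.73 and 1.382. LPAR6, a receptor for lysophosphatidic acid, rose from 3.52, 3.56 and 3.94 to 20.9, 22.7 and 21.9 CPM. Of 21 tested genes 9 were at least 2-fold lower and 5 higher.

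In the insulin and IGF pathway 7 of 25 genes were at least 2-fold higher and 6 lower. IGFBP1, a liver-secreted binding protein that insulin represses, stood at 1951, 2238 and 2078 CPM against 187, 185 and 193 (-3.47 ± 0.08). GRB10, an adaptor that restrains the insulin receptor, stood at 104, 103 and 98.7 against 9.72, 8.82 and 7.44 CPM. PIK3R1, the regulatory subunit of PI3 kinase, rose from 2.80, 2.11 and 1.43 to 15.4, 13.5 and 15.6, and the growth factor IGF2 from 187, 185 and 181 to 524, 543 and 563. The receptors INSR and IGF1R fell by 0.74 ± 0.09 and 0.75 ± 0.10. Regulators of mTORC1, the kinase complex that senses amino acids on lysosomes, had 7 of 31 at least 2-fold higher and 5 lower, and their median of 0.01 turned negative with DESeq2 size factors (-0.02). RRAGC and RRAGD, the GTPases that bring mTORC1 to the lysosome, fell from 178, 180 and 177 to 34.8, 34.6 and 35.9 CPM and from 13.3, 14.3 and 16.1 to 0.770, 0.242 and 0.709. RRAGA and RRAGB, which pair with them, did not pass the test (0.01 and -0.24).

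Most autophagy genes fell. Of 31 tested autophagy genes 24 were called lower and 2 higher, with 16 at least 2-fold lower, and the median was -1.08. Over all genes 37.8% were called lower and 40.1% higher. MAP1LC3B, which encodes the LC3 protein that coats autophagosomes, stood at 4052, 4299 and 4195 CPM in the monolayer and 363, 342 and 328 at Day 3 (-3.60 ± 0.08, 12.2-fold, adjusted p = 8.15e-28). OPTN and CALCOCO2, receptors that hand cargo to LC3, stood at 655, 586 and 601 against 82.2, 73.2 and 77.2 CPM and at 627, 607 and 596 against 139, 136 and 137. Every Day 3 library was below every monolayer library in these 3 genes, as in 39.5% of all genes, and the naming rule required this of MAP1LC3B and OPTN. The starter kinase ULK1 fell by 1.94 ± 0.14, the core factor BECN1 did not pass the test (-0.08 ± 0.08, adjusted p = 0.363), and the protease ATG4C rose by 1.57 ± 0.09. Lysosomal enzymes showed no common direction, with 11 of 38 at least 2-fold higher and 12 lower: the protease CTSB stood at 1827, 1774 and 1844 CPM against 260, 246 and 259, IDS, which removes sulfate from glycosaminoglycans, at 110, 112 and 114 against 5.24, 4.88 and 5.28, and NAGLU, which cuts heparan sulfate, at 10.9, 8.60 and 7.29 against 65.4, 58.9 and 59.3. Of 18 proton pump subunits 12 were called lower and 4 higher. Their 2 extremes are tissue-restricted forms: ATP6V0D2 fell from 28.9, 31.2 and 31.4 to 0.373, 0.104 and 0.0709 CPM and ATP6V0E2 rose from 1.65, 0.967 and 1.46 to 35.3, 36.8 and 40.4.

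Transcripts of most cytosolic and most mitochondrial ribosomal protein genes moved in opposite directions, and translation itself was not measured. Of 69 tested cytosolic ribosomal protein genes 57 were called lower and 4 higher, with 23 at least 2-fold lower and a median of -0.89. For all genes the called shares were 37.8% lower and 40.1% higher. RPL26 stood at 4130, 4400 and 4313 CPM against 1443, 1515 and 1408 (-1.56 ± 0.07, 2.94-fold), RPL34 at 296, 257 and 301 against 86.8, 88.6 and 102, and RPS6 at 2158, 2190 and 2193 against 1081, 1112 and 1116. RPL7 was counted higher (2.17 ± 0.18), and ribosomal protein genes have many near-identical copies, so single values are uncertain. Of 57 mitochondrial ribosomal protein genes 45 were called higher and 9 lower, with 26 at least 2-fold higher and a median of 0.84. MRPL23 rose from 74.1, 80.0 and 75.2 to 494, 482 and 460 CPM and MRPL17 from 40.2, 39.6 and 41.8 to 192, 192 and 200, while MRPS10 fell from 428, 480 and 458 to 224, 231 and 200. Among translation factors 9 of 36 were at least 2-fold lower and none higher. EIF1, which selects the start codon, stood at 2191, 2033 and 2108 against 448, 453 and 452 CPM (-2.23 ± 0.06), and the elongation factor EEF2 at 1990, 2007 and 1986 against 629, 601 and 639. EIF5A, an elongation factor that helps at difficult sequences, rose by 0.78 ± 0.07. Ribosome biogenesis genes changed less, with 8 of 52 at least 2-fold lower and 2 higher. MYC, a transcription factor that drives ribosome production and was placed in this list, fell from 1107, 1077 and 1105 to 270, 253 and 267 CPM, while NOP56 and FBL, which modify ribosomal RNA, rose by 1.41 ± 0.07 and 0.92 ± 0.07.

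**Figure D3:**
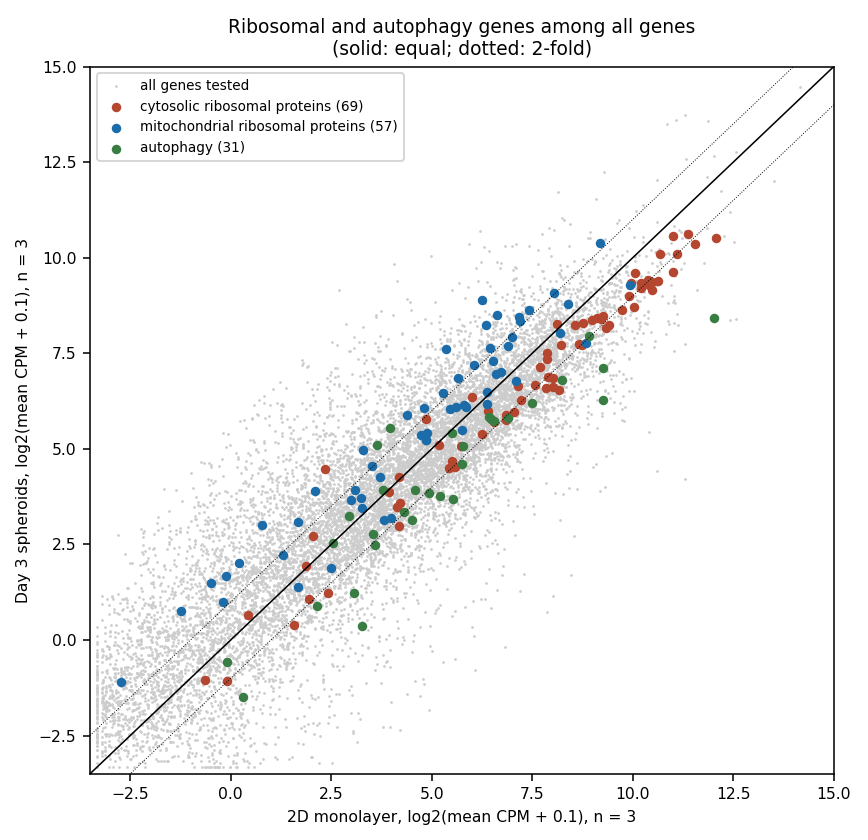
Mean level of each tested gene in the monolayer (horizontal) and in Day 3 spheroids (vertical) on log2 CPM axes, n = 3 libraries each, with the solid line at equal level and dotted lines at 2-fold. Most of the 69 cytosolic ribosomal protein genes and 31 autophagy genes lie below the solid line, and most of the 57 mitochondrial ribosomal protein genes lie above it.

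Mitochondrial genes beyond the ribosome rose by smaller steps. Of 61 nuclear-encoded subunits of the respiratory chain and ATP synthase 39 were called higher and 4 lower, where 40.1% and 37.8% of all genes were. But 13 were at least 2-fold higher and none lower, so the 2-fold share of 21.3% lay near the 25.4% of all genes. NDUFB10 of complex I stood at 6.65, 6.34 and 8.10 CPM against 34.8, 35.5 and 31.9 (2.28 ± 0.12), and UQCRQ of complex III at 22.0, 22.0 and 19.7 against 79.6, 74.7 and 82.6. UQCRFS1, the iron-sulfur subunit of the same complex III, fell by 0.54 ± 0.08. Carriers of the inner membrane changed more. SLC25A10, which exchanges dicarboxylates for phosphate, rose from 88.5, 73.8 and 75.5 to 1184, 1235 and 1282 CPM (3.96 ± 0.17, 15.6-fold), SLC25A20, which imports acylcarnitines, from 9.15, 10.7 and 11.7 to 107, 107 and 103, and SLC25A1, which exports citrate, from 19.7, 23.1 and 22.3 to 136, 123 and 130. The groups did not overlap for any carrier named, as for 80.9% of all genes, and the naming rule required this of SLC25A10. IDH2, the mitochondrial isocitrate dehydrogenase that yields NADPH, rose from 29.5, 28.6 and 27.2 to 346, 354 and 315 CPM. In the TCA cycle and carrier list 9 of 30 were at least 2-fold higher and 1 lower, SLC25A6, an ADP/ATP carrier with near-identical copies (-1.17 ± 0.10). Of 19 peroxisome genes 9 were at least 2-fold higher and none lower, with PXMP2, a membrane pore, at 3.24 ± 0.21 and the peroxin PEX10 at 2.28 ± 0.17. CAT, catalase, rose from 41.3, 36.0 and 33.3 to 230, 244 and 226 CPM.

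Glucose genes moved in both directions, and more of them rose than fell. HK2, the hexokinase of tumour and muscle cells, stood at 1805, 1643 and 1646 CPM against 512, 491 and 535 (-1.73 ± 0.09), and PFKP, the platelet form of phosphofructokinase, at 43.0, 50.4 and 48.6 against 6.19, 6.54 and 5.95. The glucose transporter SLC2A1 fell from 18.01, 16.8 and 15.2 to 5.82, 5.64 and 5.81, and SLC2A2, the liver transporter, rose from 0.635, 1.25 and 1.07 to 7.03, 7.75 and 8.93. PKLR, the liver pyruvate kinase, and PFKL, the liver phosphofructokinase, rose by 3.81 and 1.74 on the log2 scale. Other enzymes of the pathway rose as well: GPI by 1.77 ± 0.07, LDHA from 149, 151 and 150 to 554, 560 and 524 CPM, and ENO3 and ALDOC, typical of muscle and brain, by 3.73 ± 0.32 and 3.40 ± 0.22. Of 27 tested glycolysis genes 12 were at least 2-fold higher and 4 lower.

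In the list of gluconeogenesis and glycogen 10 of 19 genes were at least 2-fold higher and 4 lower. G6PC, the glucose 6-phosphatase of liver, stood at 0.466, 0.560 and 0.846 CPM against 6.29, 5.88 and 7.65 (3.38 ± 0.33), and its broadly expressed relative G6PC3 at 1.36, 1.20 and 0.651 against 12.03, 11.97 and 11.1. PCK1, the first committed enzyme of gluconeogenesis, rose by 2.61 ± 0.30. The subunits that direct a phosphatase to glycogen changed places: PPP1R3C rose from 1.74, 1.30 and 1.59 to 21.3, 22.6 and 22.0 CPM, and PPP1R3B fell from 6.74, 8.22 and 7.87 to 0.323, 0.519 and 0.0709. GBE1, the branching enzyme of glycogen, fell from 844, 885 and 877 to 130, 124 and 117 CPM (-2.81 ± 0.06). Targets of the hypoxia factor HIF outside glycolysis also disagreed with each other, 5 of 22 at least 2-fold higher and 4 lower. LOX, which crosslinks collagen, rose from 13.3, 9.42 and 8.49 to 131, 129 and 124 CPM and PDK3, a kinase that shuts pyruvate out of the TCA cycle, from 1.14, 0.509 and 0.716 to 12.97, 11.8 and 11.2. VEGFA and ADM, secreted factors for vessels, fell by 1.73 ± 0.06 and 2.03 ± 0.17.

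Heme and iron genes split, with members named here that rose and members that fell. UROS, the fourth enzyme of heme synthesis, stood at 8.09, 7.07 and 7.29 CPM against 83.0, 90.9 and 90.0 (3.56 ± 0.10, 11.8-fold), and CPOX at 4.32, 4.91 and 3.77 against 26.5, 26.9 and 28.9. FECH, the last enzyme, rose by 1.39 and UROD fell by 0.96. FTH1, the ferritin heavy chain, fell from 2483, 2242 and 2322 to 814, 802 and 901 CPM, and the iron exporter SLC40A1 from 690, 670 and 640 to 215, 206 and 227. Over the list 8 of 25 were at least 2-fold higher (32.0%) and 6 lower (24.0%), near the shares of all genes. Membrane lipid genes had 8 of 34 in each direction, and their median of -0.17 turned to 0.05 with scaling by library size alone. Within it several sphingolipid enzymes fell, SGMS2, a sphingomyelin synthase, from 115, 98.7 and 107 to 3.11, 2.59 and 3.69 CPM, KDSR by 2.56 ± 0.09 and the glucosylceramide synthase UGCG by 2.37 ± 0.08, while SPTLC3, a subunit that broadens the first step, rose from 3.14, 2.39 and 2.57 to 47.2, 46.6 and 47.4. PCYT1B, an enzyme of phosphatidylcholine synthesis, rose from 0.932, 0.840 and 0.488 to 26.6, 25.2 and 28.2 CPM (5.15 ± 0.20).

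Several SR splicing regulators rose and the kinases CLK1 and CLK4 fell. SRSF2 stood at 25.4, 27.2 and 25.8 CPM in the monolayer and 211, 205 and 201 at Day 3 (2.97 ± 0.08), SRSF1 at 44.9, 50.9 and 53.3 against 282, 285 and 257, and SRSF7 at 33.3, 33.6 and 31.6 against 131, 135 and 138. CLK1, an SR protein kinase, stood at 82.1, 82.8 and 81.0 against 17.1, 17.02 and 19.3 CPM, and CLK4 fell by 1.84 ± 0.21. The family was not uniform, since SRSF4 fell by 0.98 and SRSF11 by 0.66. Of 49 splicing genes 11 were at least 2-fold higher (22.4%) and 4 lower, a share near that of all genes. Chromatin regulators had 12 of 53 at least 2-fold lower and 6 higher, with the histone demethylase KDM6B at 61.0, 65.4 and 62.8 against 6.98, 7.20 and 7.16 CPM, the deacetylase SIRT1 at 325, 278 and 300 against 38.7, 40.0 and 42.2, and TET1, which oxidises methylated DNA, rising from 37.4, 32.7 and 35.9 to 111, 115 and 107. Proteasome genes changed little: 2 of 38 were at least 2-fold higher and 2 lower. PSMB9 and PSMB8 of the immunoproteasome, listed with interferon genes, rose from 0.339, 0.534 and 0.455 to 7.98, 8.99 and 10.9 CPM and by 1.86 ± 0.14, and TAP2, a peptide transporter, by 1.92 ± 0.12. B2M, the light chain of the molecules that present those peptides, did not pass the test (-0.06 ± 0.06). In the interferon and MHC class I list 8 of 32 were at least 2-fold higher and 6 lower.

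Secretory genes fell by small steps, with 39 of 59 called lower and 12 higher but 15 at least 2-fold lower and 1 higher. Called lower and higher were 37.8% and 40.1% of all genes. MIA3, which loads collagen and other bulky cargo into vesicles, stood at 363, 338 and 355 CPM against 74.2, 68.6 and 72.1 (-2.30 ± 0.07). KDELR3, a receptor that returns chaperones to the endoplasmic reticulum, was the member at least 2-fold higher, at 75.2, 65.7 and 65.8 against 173, 181 and 183 CPM. Clock genes had 7 of 17 at least 2-fold lower and 4 higher: CRY1 of the repressor arm fell from 179, 168 and 173 to 47.3, 48.9 and 43.8 CPM and NFIL3 by 2.06 ± 0.08, while HLF and DBP, factors of the same site that NFIL3 opposes, rose by 1.94 ± 0.07 and 1.71 ± 0.24. Nuclear receptors split evenly, 8 of 28 in each direction, with PPARG of fat storage falling from 1020, 929 and 949 to 162, 168 and 158 CPM, the clock repressor NR1D1 at -3.07 ± 0.24 and NR0B2, a repressor induced by bile acids, rising by 1.44 ± 0.07. Log2 fold changes in this list ran from -3.07 to 6.79, the latter that of a member not named here. Among apoptosis regulators 12 of 28 were at least 2-fold lower and 4 higher. The survival genes MCL1 and BCL2L1 fell from 795, 730 and 785 to 120, 116 and 126 CPM and by 1.91 ± 0.07, the killer gene BBC3 fell by 2.55 ± 0.08, and BAX and CASP6, which promote cell death, rose by 1.35 ± 0.07 and 2.10 ± 0.12.

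Outside the lists the largest rises were those of LCN15, a lipocalin, from 7.24, 6.64 and 5.11 to 563, 556 and 585 CPM, of ALDH8A1, an enzyme of tryptophan breakdown, from 0.254, 0.204 and 0.195 to 18.5, 15.4 and 12.2, and of ERP27 of the endoplasmic reticulum (5.77 ± 0.15). P2RY8, TMEM37, MT1G and DGKK followed with log2 fold changes of 5.58 to 5.01. H3C14 (5.26 ± 0.46), a histone gene with near-identical copies, and DUT (5.10 ± 0.35), which keeps uracil out of DNA, also rank here, though both serve DNA replication and were not in the list set aside. Among the largest falls besides those above were SPNS2, a sphingosine phosphate exporter, from 15.9, 15.7 and 15.1 to 0.0746, 0.173 and 0.0709 CPM, RGCC, a cell cycle regulator induced by complement, from 108, 118 and 114 to 1.12, 0.415 and 0.815, PLEKHH2 from 246, 265 and 264 to 2.44, 2.08 and 1.88, and AQP3, a glycerol channel, from 25.8, 25.7 and 26.5 to 0.373, 0.208 and 0.213. By share of counts PEG10, an imprinted gene of retroviral origin, gained most outside the set-aside lists, from 2249, 2185 and 2078 to 12626, 12631 and 11781 CPM. NQO1, a quinone reductase, followed with 2635, 2514 and 2529 against 5878, 6138 and 6490. UGDH, which makes UDP-glucuronate, lost most, from 12205, 11297 and 11513 to 4362, 3972 and 3991 CPM, and ACSL5, which activates long fatty acids, fell from 5655, 5516 and 5190 to 339, 317 and 335 (-4.05 ± 0.08, 16.5-fold).

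A few genes were near absent on one side, with at most 3 counts in each library of a group and at least 2 CPM in each library of the other. There were 6 such genes in the spheroids, and 3 in the monolayer, of which EME1 is in the cell cycle list. DMRTA1, a transcription factor, had 154, 213 and 150 counts in the monolayer libraries and 1, 0 and 0 at Day 3. FLNC, the muscle form of the actin crosslinker filamin, had 126, 153 and 128 against 1, 0 and 0. SFRP5, a secreted WNT inhibitor, had 1, 1 and 2 counts in the monolayer and 254, 186 and 196 at Day 3, a ratio of 153 on library size with an exact 95% interval of 59.4 to 563 that covers counting error only. HFE, the hemochromatosis protein that takes part in iron sensing, had 2, 3 and 2 counts against 198, 95 and 100, a ratio of 54.0 (26.0 to 135).

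Later levels are given for a few of these genes. Of the 159 tested genes that the naming rule chose, 133 also differed between Day 28 and Day 3, 57 higher and 76 lower, against 59.6% of all genes called in that comparison (29.5% higher and 30.2% lower). The named genes were chosen for their Day 3 difference and both comparisons use the Day 3 libraries, so nothing is read from that count. LCN15 stood at 7.94 ± 1.35 CPM (SD, n = 3) at Day 28, ID1 at 194 ± 11.4 and COL9A2 at 11.6 ± 1.375. MAP1LC3B regained part of its level with 1200 ± 120 CPM, and RPL26 and EEF1A1, a second elongation factor, stood at 3594 ± 237 and 5934 ± 1046, where EEF1A1 had 5949, 5086 and 5341 in the monolayer and 2354, 2309 and 2353 at Day 3. Others were still near their Day 3 level: AREG was at 18.8 ± 0.715, FOSL1 at 24.6 ± 0.547, ITGB1 at 145 ± 8.24 and TIMP1 at 127 ± 8.89 CPM. G6PC rose further, to 28.9 ± 9.89 CPM, and KRT80 fell further, to 1.11 ± 0.192.

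**Figure D4:**
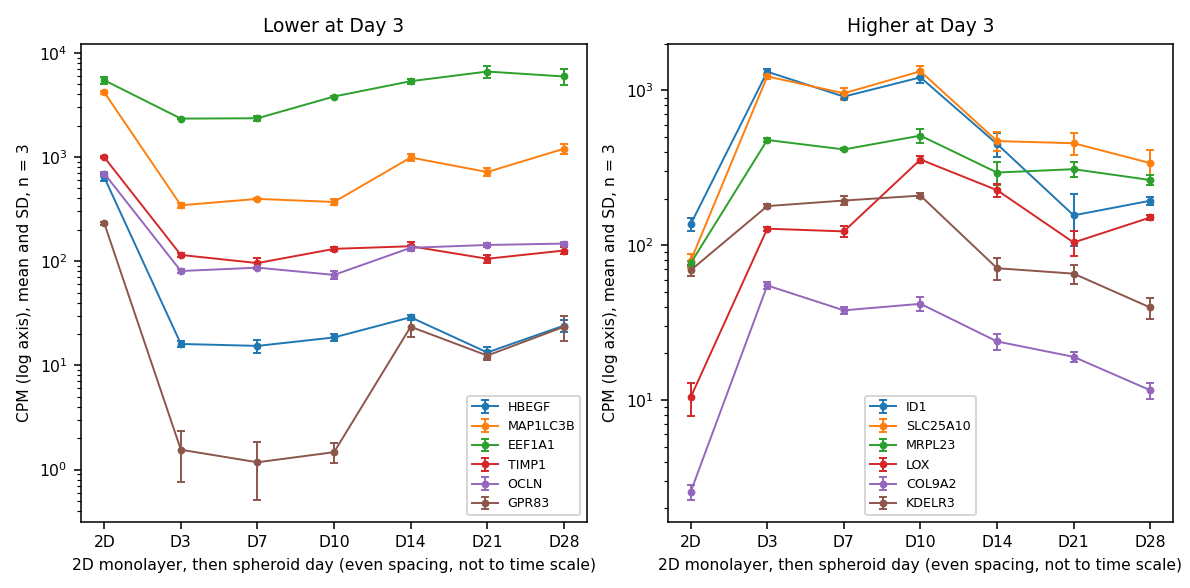
Mean level and SD (n = 3 libraries a group) in CPM on log axes for 6 genes lower and 6 genes higher at Day 3, from the 2D monolayer through the 6 spheroid days, evenly spaced. HBEGF, TIMP1 and OCLN stay low, EEF1A1 returns to its monolayer level, and ID1, COL9A2 and SLC25A10 fall back in part.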

How the data were processed

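TempO-Seq RNA levels were measured in 21 libraries, of which 3 monolayer and 3 Day 3 libraries are compared. Values are raw counts for each gene symbol, in 1 table deposited by the authors that covers the whole series. Per the submitters' processing notes, GRCh38.p13, STAR 2.7.10b, fastp 0.23.2, DESeq2 1.38.0 and bcl2fastq 2.20.422 were used, in roles that are not stated. No source used here says how probes of 1 gene were combined.

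Of 19683 symbols 3403 were at 0 in all libraries. The edgeR filter (filterByExpr, minimum count 10) kept 12345 genes, and the 7338 removed held 0.0108% of counts. All 21 libraries were fitted together by group in edgeR 4.0.16 (R 4.3.3) with TMM scaling and robust quasi-likelihood (biological variation 9.62%) and 14 residual and 18 prior degrees of freedom, and the contrast Day 3 minus monolayer was tested with p-values adjusted over all genes tested. SEs are the absolute log2 fold change over the square root of the F statistic. The fit was tested on simulated data in which few genes changed, equally in both directions. Scaling where most genes change, as here, was not tested by it. No pair of replicates looked like 1 library deposited again (chi-square over its degrees of freedom 5.68 to 12.1). Lists were described by counts and medians, with no list test.

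The lists and the comparison were chosen with earlier results of these data known. The lists hold 1901 genes from textbook knowledge, 1720 of them tested. The rule for named genes took the 12 largest rises and falls outside the lists set aside (at least 10 CPM in the higher group, no overlap of libraries), the 2 members of each list that changed most in the direction of its median and 1 in the other direction (at least 5 CPM), the 6 largest gains and losses of CPM, and up to 8 genes near absent in each group. Other list members named were chosen after their values were seen. Of the 160 genes with a sought location 159 were found in GENCODE 29 on GRCh38 by symbol. Promoters are RefSeq windows of GRCh38.p14, with 9932 of 12345 genes matched. Alternatives were DESeq2 1.42.0, other scalings and filters, a fit of the 6 libraries alone, a test against 2-fold, a replicate block and leaving out each library. Some results are not reported here.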

Additional observations from a re-analysis of the deposited data

Results flagged for a closer look

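KDELR3, the receptor that returns chaperones to the endoplasmic reticulum, was the 1 gene of the 159 chosen by the naming rule that was called higher than the monolayer on one of Day 3 and Day 28 and called lower on the other, with the change between those days called too. It was higher than the monolayer at Day 3 (log2 fold change 1.379 ± 0.11) and lower at Day 28, when it stood at 39.6 ± 6.33 CPM (SD, n = 3). The change from Day 3 to Day 28 was itself tested in the same edgeR fit and was -2.18 on the log2 scale. Its level was 75.2, 65.7 and 65.8 CPM in the monolayer and 173, 181 and 183 at Day 3.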

How the results depend on the processing

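The 159 genes chosen by the naming rule kept their direction and their call under the 14 alternatives that refitted them. They were chosen for large differences in these same libraries, so this outcome was largely fixed in advance. The other genes named in the text were not tabulated in this way. The count of 9627 called genes was 9696 with DESeq2, 9659 with the 6 libraries alone, 7907 with a filter of at least 5 CPM in 3 libraries, and 9242 to 9403 with 1 library left out. A test against 2-fold called 2558 genes higher and 1914 lower. Scaling by library size alone gave 5697 genes higher and 3919 lower. The replicate numbers showed no visible pairing. Deviations of same-numbered libraries correlated at -0.0271, 0.0450 and -0.0117, and those of differently numbered libraries at -0.0451 to 0.0527. A culture or batch shared by libraries of 1 number was not tested. With the replicate block 9653 genes were called, 4975 higher and 4678 lower. Medians of lists near 0 changed sign: apical and polarity genes to 0.16 with library size alone and 0.0379 with upper quartile scaling, membrane lipid genes to 0.0469 with library size alone, insulin and IGF genes to -0.20, HIF targets to -0.19 and interferon genes to -0.0223 with the 5 CPM filter, the last also to -0.0302 without a filter, mTORC1 regulators to -0.0175 with DESeq2, -0.0176 with its size factors and -0.115 to -0.00193 with 1 library left out, proteasome genes to -0.00131 and -0.0129 without monolayer replicate 1 or 3 (up to 0.0411 without another library), and lysosomal enzymes to -0.00854 without monolayer replicate 3 (up to 0.0856). Counting genes as near absent at up to 10 counts per library gave 33 genes in one direction and 50 in the other. The cause of these shifts was not tested. Low counts limit folds of genes such as IL11 and EGFR at Day 3.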

Other observations

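Genes that rose most tended to be shorter. The median gene length in GENCODE 29 was 29.01 kb over all tested genes with a location, 19.4 kb for the genes called at least 8-fold higher, 17.6 kb for those without the cell cycle list and 27.0 kb for the genes called at least 8-fold lower. This is a description of gene models without a test.

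Markers of blood cells and of fibroblasts summed to more CPM at Day 3, at 220 to 225 against 64.7 to 69.3 and at 27.4 to 31.1 against 8.35 to 13.4. Each rise rested largely on 1 gene, LYZ, which encodes lysozyme and stood at 20.7, 19.4 and 19.8 CPM in the monolayer and 165, 174 and 163 at Day 3, and ACTA2, smooth muscle actin, at 8.30, 13.2 and 10.4 against 29.9, 26.4 and 30.5. PTPRC, MARCO, COL1A2 and DES had 0 counts in these 6 libraries.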
